A study of Gallus gallus with 12 samples.

Results

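The genes described here are the collagen chains and the enzymes that modify, cleave or cross-link collagen, in the breast muscle of broiler chickens. They were chosen by symbol, as collagen chain genes (COL and a number) together with P4HA1 to P4HA3, PLOD1 to PLOD3, LOX, the LOXL genes, SERPINH1, BMP1, PCOLCE and PCOLCE2. Of 11528 genes with a single symbol on the array, 42 were such genes, 33 collagen chains and 9 enzymes. Each was read from 1 transcript cluster, the probe set for 1 gene region, and for the 3 members with more than 1 cluster from the brightest. A further 17 genes of these families, COL3A1, COL2A1, COL5A2, PLOD3, BMP1 and PCOLCE among them, were not analysed here.

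The muscle was Pectoralis major of Ross PM3 chickens at day 36. Groups of 4 pools each, with 4 birds in a pool, had received a diet restricted in phosphorus and calcium with added phytase, the restricted diet alone, or a normal diet. Phytase frees the phosphate that plant feeds store as phytate. The comparisons ask how the restriction, and phytase on top of it, alter muscle expression. Values are deposited log2 array levels, taken as base 2, so a difference of 1 is a doubling of signal.

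Fibrillar collagens such as type I are made as procollagen chains that fold into triple helices in the endoplasmic reticulum. Prolyl 4-hydroxylases and lysyl hydroxylases modify the chains, the chaperone SERPINH1 (HSP47) binds the folded helix, proteinases remove the end propeptides outside the cell, and lysyl oxidases form the aldehydes from which cross-links arise. In skeletal muscle, type I and type III fibrils with type VI filaments fill the connective tissue around fibres and fascicles, and fibroblasts are their main source. Type IV collagen forms the network of the basement membrane that wraps every muscle fibre and capillary.

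Array medians ran from 3.10 to 3.19. Skeletal muscle markers were bright, with means over the 12 arrays of 13.59 for ACTA1, 12.46 for TNNC2 and 11.87 for TNNT3. The cartilage markers ACAN, MATN1 and MATN3 and the bone factor RUNX2 had means of 2.23, 1.93, 2.03 and 2.25, all under 2.67, the level below which transcript clusters were not tested. The tendon and cartilage markers TNMD and SOX9 (3.98 and 3.71) and the bone markers IBSP and ALPL (3.35 and 3.69) lay above it. HINTW, a gene of the female-specific W chromosome, was bright in 4 pools, phytase replicates 1 and 4 and restricted replicates 1 and 2, at 7.57 to 8.08, and at 2.27 to 2.76 in the other pools. No normal pool was among the 4, so HINTW signal and diet overlap in part, and the main values are also given without those pools.

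Of the 42 genes, 36 reached the limit for testing, all 9 enzymes and 27 chains. The 6 dim ones were COL4A4, COL6A6, COL9A1, COL10A1, COL17A1 and COL25A1, with means from 1.96 to 2.63. They include the hypertrophic cartilage chain COL10A1, the cartilage chain COL9A1 and the epithelial hemidesmosome chain COL17A1. Just above the limit were COL22A1, a chain of muscle-tendon junctions, at 2.72, and COL11A1, a minor fibrillar chain of cartilage, at 2.77. Probes differ in how strongly they bind, so the level of 1 gene is not set against that of another below. Fewer cells of a type and less RNA per cell cannot be told apart in these pooled tissue samples.

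The genes for the 2 chains of type I collagen, COL1A1 and COL1A2, lay higher on average in both restricted diets than in the normal diet, but within the spread of the pools. COL1A1 was 11.68, 12.21, 11.71 and 11.99 in the phytase pools, 11.75, 12.38, 11.90 and 12.01 in the restricted pools, and 11.93, 12.11, 11.02 and 11.30 in the normal pools. The normal pools were themselves split, with replicates 3 and 4 under every other pool and replicates 1 and 2 inside the range of the restricted and phytase pools. COL1A1 averaged 12.01 ± 0.27 in the restricted diet and 11.59 ± 0.51 in the normal diet (SD, n = 4 each). The difference was 0.42 ± 0.21 (SE), 1.34-fold, with a 95% interval from -0.04 to 0.88 (limma, unadjusted p = 0.0683, adjusted p = 0.904 over all clusters tested). Left out 1 at a time, the pools gave 0.23 to 0.59, with 0.23 when normal replicate 3 was absent. For phytase over normal the COL1A1 difference was 0.31 ± 0.21 (SE; limma, unadjusted p = 0.17, adjusted p = 0.984).

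Within each diet COL1A2 ranked the pools in the same order as COL1A1. COL1A2 was 8.94, 9.82, 9.16 and 9.33 in the phytase pools, 9.12, 9.85, 9.31 and 9.55 in the restricted pools, and 9.33, 9.77, 8.79 and 8.95 in the normal pools. Unlike for COL1A1, phytase replicate 1, at 8.94, lay just under normal replicate 4, at 8.95. Restricted pools averaged 0.25 above normal pools. A dimmer second cluster of COL1A2, with a mean of 5.37, gave 0.34 for the same comparison but -0.12 for phytase over normal, where the brighter cluster gave 0.10. COL5A1, a type V chain that nucleates type I fibrils, was 6.30 to 6.66 in phytase pools, 6.40 to 6.95 in restricted pools and 6.14 to 6.68 in normal pools, and the restricted mean lay 0.21 above the normal one.

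Type VI collagen forms beaded filaments that tie fibrils to the basement membrane, and its chains COL6A1, COL6A2 and COL6A3 are products of separate genes that assemble together. COL6A1 was 8.46, 8.95, 8.88 and 8.88 in phytase pools, 8.70, 9.40, 8.60 and 8.96 in restricted pools, and 8.74, 8.82, 8.39 and 8.45 in normal pools. COL6A2, a neighbour of COL6A1 in the chicken genome, was 8.80 to 9.17 in phytase pools, 8.80 to 9.45 in restricted pools and 8.63 to 9.17 in normal pools. COL6A3 was 8.21 to 8.85 in phytase pools, 8.22 to 8.80 in restricted pools and 7.96 to 8.58 in normal pools. The diets overlapped for all 3 chains, and the restricted means lay 0.32, 0.19 and 0.20 above the normal means for COL6A1, COL6A2 and COL6A3. COL28A1, a chain related to type VI, had its lowest mean in the restricted diet. It averaged 3.81 ± 0.46 in phytase pools, 3.39 ± 0.30 in restricted pools and 3.60 ± 0.10 in normal pools (SD, n = 4 each), with restricted minus normal at -0.20. Phytase replicates 1 and 2, at 4.20 and 4.19, stood above all other pools, and the phytase minus restricted difference was 0.42 ± 0.21 (SE; limma, unadjusted p = 0.063, adjusted p = 0.571).

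COL4A1, a chain of the common basement membrane network, had the narrowest span of the 36 genes. It was 7.60, 7.33, 7.53 and 7.41 in phytase pools, 7.42, 7.44, 7.56 and 7.63 in restricted pools, and 7.44, 7.61, 7.35 and 7.41 in normal pools, a span of 0.30 over the 12 pools. The restricted minus normal difference was 0.06. COL4A2, the partner chain encoded beside COL4A1, spanned 0.55. It averaged 6.30 ± 0.10 in phytase pools, 6.42 ± 0.20 in restricted pools and 6.52 ± 0.15 in normal pools (SD, n = 4 each). Its phytase minus normal difference was -0.22 ± 0.13 (SE; limma, unadjusted p = 0.118, adjusted p = 0.984).

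COL4A5, an alternative type IV chain, was 3.07, 3.26, 3.15 and 3.04 in phytase pools, 3.40, 3.59, 3.66 and 3.11 in restricted pools, and 3.14, 3.03, 3.07 and 3.28 in normal pools. In 3 of 4 restricted pools it stood above every pool of the other diets. The restricted diet was 0.31 ± 0.14 (SE) above normal, 1.24-fold, with a 95% interval from 0.01 to 0.61 (limma, unadjusted p = 0.0417, adjusted p = 0.904). The phytase diet was 0.31 below restricted, with the same SE (limma, adjusted p = 0.556). Its signal is close to the testing limit of 2.67.

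FACITs are collagens that sit on the surface of fibrils. COL12A1, which decorates type I fibrils in dense connective tissue, had the widest span of the 36 genes, 2.26 log2 units. It was 3.47, 5.23, 3.90 and 4.44 in phytase pools, 3.39, 5.0, 4.19 and 4.42 in restricted pools, and 4.34, 3.98, 2.97 and 3.38 in normal pools. Its differences were accordingly uncertain, at 0.58 for restricted over normal and 0.59 ± 0.40 (SE) for phytase over normal (limma, unadjusted p = 0.162, adjusted p = 0.984). Without single pools the phytase difference ran from 0.27 to 0.86. COL14A1, a related fibril-surface chain, was 4.11 to 4.74 in phytase pools, 4.09 to 4.75 in restricted pools and 3.84 to 4.74 in normal pools, with a restricted minus normal difference of 0.14.

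COL21A1, another FACIT, was 3.52, 3.5, 3.98 and 3.78 in phytase pools, 4.19, 3.34, 4.20 and 4.00 in restricted pools, and 3.54, 3.73, 3.15 and 3.5 in normal pools. In 3 restricted pools it lay above all normal pools, and restricted replicate 2 lay inside their range. The difference of 0.45 ± 0.20 (SE), 1.37-fold, had a 95% interval from 0.02 to 0.88 (limma, unadjusted p = 0.0408, adjusted p = 0.904). The remaining tested FACITs, COL9A3, COL19A1, COL20A1 and COL22A1, stayed between 2.22 and 3.89 in all pools.

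COL8A1, a short-chain collagen of vessel walls, was 4.81, 5.36, 4.92 and 4.87 in phytase pools, 5.25, 4.97, 4.30 and 5.04 in restricted pools, and 4.83, 4.52, 4.33 and 4.20 in normal pools. In 3 of 4 phytase pools it lay above all normal pools, and phytase replicate 1, at 4.81, lay just under the 4.83 of normal replicate 1. Phytase exceeded normal by 0.52 ± 0.21 (SE), 1.43-fold, with a 95% interval from 0.07 to 0.97 (limma, unadjusted p = 0.0266, adjusted p = 0.984). Restricted exceeded normal by 0.42 ± 0.21 (SE; limma, unadjusted p = 0.0651, adjusted p = 0.904). Without phytase replicate 2 the phytase difference was 0.40 (limma, unadjusted p = 0.0922).

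Multiplexins are basement membrane zone collagens, and COL18A1 is the precursor of endostatin. COL18A1 was 5.12 to 5.53 in phytase pools, 4.75 to 5.88 in restricted pools and 5.30 to 5.59 in normal pools. Restricted replicate 3 was the low pool, at 4.75, and its second cluster read 3.99 in the same pool. The clusters differed in sign for restricted minus normal, 0.06 for the brighter and -0.26 for the second. The transmembrane chain COL23A1 differed by 0.04 between restricted and normal, with pools from 2.98 to 3.94.

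COL26A1, described first in mouse testis and ovary, was 3.46, 3.53, 3.43 and 3.41 in phytase pools and 3.35, 3.30, 2.99 and 3.37 in restricted pools. All 4 phytase pools lay above all 4 restricted pools, by 0.20 ± 0.13 (SE) on average (limma, unadjusted p = 0.131, adjusted p = 0.65). No other of the 36 genes had non-overlapping pools in that comparison. Of all 12482 clusters 1.64% had phytase pools wholly above restricted pools. The normal pools of COL26A1, 3.25 to 3.55, overlapped with each of them.

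None of the 9 enzymes, with the chaperone SERPINH1 counted among them, had pools that separated the diets. SERPINH1 was 7.83, 8.41, 7.93 and 8.09 in phytase pools, 7.90, 8.74, 8.31 and 8.48 in restricted pools, and 8.17, 8.28, 7.78 and 8.06 in normal pools. The restricted mean of 8.36 ± 0.35 compared with 8.07 ± 0.25 in phytase pools and 8.07 ± 0.21 in normal pools (SD, n = 4 each), and the phytase minus restricted difference was -0.29 ± 0.18 (SE; limma, unadjusted p = 0.126, adjusted p = 0.646). LOX, which oxidises lysines in collagen and elastin, was 6.93 to 7.47 in phytase pools, 6.61 to 7.51 in restricted pools and 6.44 to 7.15 in normal pools. Its restricted mean was 0.18 above the normal one.

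P4HA1, a catalytic subunit of prolyl 4-hydroxylase, kept to a narrow range, at 5.29 to 5.68 in phytase pools, 5.27 to 5.48 in restricted pools and 5.30 to 5.61 in normal pools. PLOD1, which hydroxylates lysines of the triple helix, was 6.57 to 6.82 in phytase pools, 6.40 to 6.98 in restricted pools and 6.53 to 6.89 in normal pools. PLOD2, the lysyl hydroxylase of the telopeptides, ranged from 4.22 in restricted replicate 1 to 6.35 in phytase replicate 2. Restricted minus normal differences were -0.06 for P4HA1, -0.03 for PLOD1 and -0.33 for PCOLCE2, an enhancer of C-propeptide cleavage whose pools ran from 4.24 to 5.98.

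Counted over the family, none of the 36 genes passed an adjusted p of 0.05 in any of the 3 diet comparisons or in the test over the 3 diets, and neither did any of the 12482 clusters, so percent called was 0 throughout. At an unadjusted p of 0.05, limma called 2 of 36 for restricted over normal, COL21A1 and COL4A5, against 5.3% of all clusters. Both were higher in the restricted diet, the direction of 2.6% of clusters, and 0 members were called lower, against 2.71%. It called 1 for phytase over normal, COL8A1, against 4.32%, and it was higher with phytase, as in 2.1% of clusters. It called 1 for phytase minus restricted, COL4A5, against 8.83%, and it was lower with phytase, as in 3.8%, with 0 members higher, against 5.03%. In the test over all 3 diets it called 0, against 5.97%. These shares are near the background and give no result about the family. Pools did not overlap in 0 members for restricted over normal (1.16% of clusters higher and 1.15% lower) and in 0 for phytase over normal (1.54% higher and 1.51% lower). For phytase minus restricted 0 members were lower in all pools, against 2.03%.

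Restricted minus normal was above 0 for 23 of 36 genes, and below 0 for 13, where 48.6% of all clusters were above and 50.9% below, with a median of 0.09 and a range from -0.33 to 0.58. Phytase minus normal was above 0 for 23 of 36, against 49.6% of clusters, and below 0 for 12, against 49.9%, with COL4A5 at exactly 0, a median of 0.04 and a range from -0.22 to 0.59. Phytase minus restricted was below 0 for 23 of 36, against 51.2% of clusters, and above 0 for 13, against 48.3%, with a median of -0.06. The comparisons share pools, so they are not independent of each other. The restricted over normal count and median were 19 of 36 and 0.02 without normal replicate 3, and the phytase over normal median was 0.02 without phytase replicate 2, normal replicate 3 or normal replicate 4 and 0.06 without phytase replicate 1 or normal replicate 2. The phytase minus restricted median was -0.0029 without restricted replicate 2, with 18 of 36 above 0, and -0.0187 without phytase replicate 1. Without restricted replicate 3 the restricted over normal median was 0.18, and without restricted replicate 2 or normal replicate 4 it was 0.05. Differences lay above 0 for 18 of 27 chains and 5 of 9 enzymes in restricted over normal, and for 20 of 27 chains and 3 of 9 enzymes in phytase over normal.

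By type, restricted over normal was above 0 for both type I chains (median 0.33), 3 of 4 beaded filament chains (median 0.20), 5 of 7 FACITs (median 0.22), both short-chain collagens (median 0.27) and all 3 lysyl oxidases. It was above 0 for 2 of 4 basement membrane chains, with a median of 0.00. It was below 0 for both prolyl hydroxylase subunits. Of all clusters 48.6% were above 0 and 50.9% below, and counts this small give no result about a type. Some signs hung on 1 pool. LOXL3 fell to -0.095 without normal replicate 3, COL8A2 to -0.02 without restricted replicate 1 and COL14A1 to -0.0125 without restricted replicate 2. P4HA3, a prolyl hydroxylase subunit, rose to 0.045 without normal replicate 1. When single pools were left out in turn, 24 of the 36 genes kept the sign of restricted minus normal in every case, 16 above and 8 below. For phytase minus restricted and for phytase minus normal it was 17 each. No such share is given for all clusters, so these counts give no result about the family.

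Without the 4 pools with HINTW signal, which leaves 2 phytase, 2 restricted and 4 normal pools, the family median was 0.09 for phytase minus restricted, with 26 of 36 genes above 0, against -0.06 and 13 of 36 with all pools. For restricted over normal it was 0.02, with 19 of 36 above 0, against 0.09 and 23 of 36 with all pools. COL21A1 was 0.62 above normal in the restricted diet in those pools and COL1A1 0.37, while COL4A5 was 0.26. COL8A1 was 0.67 above normal with phytase. Restricted minus normal changed sign for COL18A1, to -0.30, and for COL23A1, to -0.14, and PLOD1 stood at 0.0375.

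**Figure D1:**
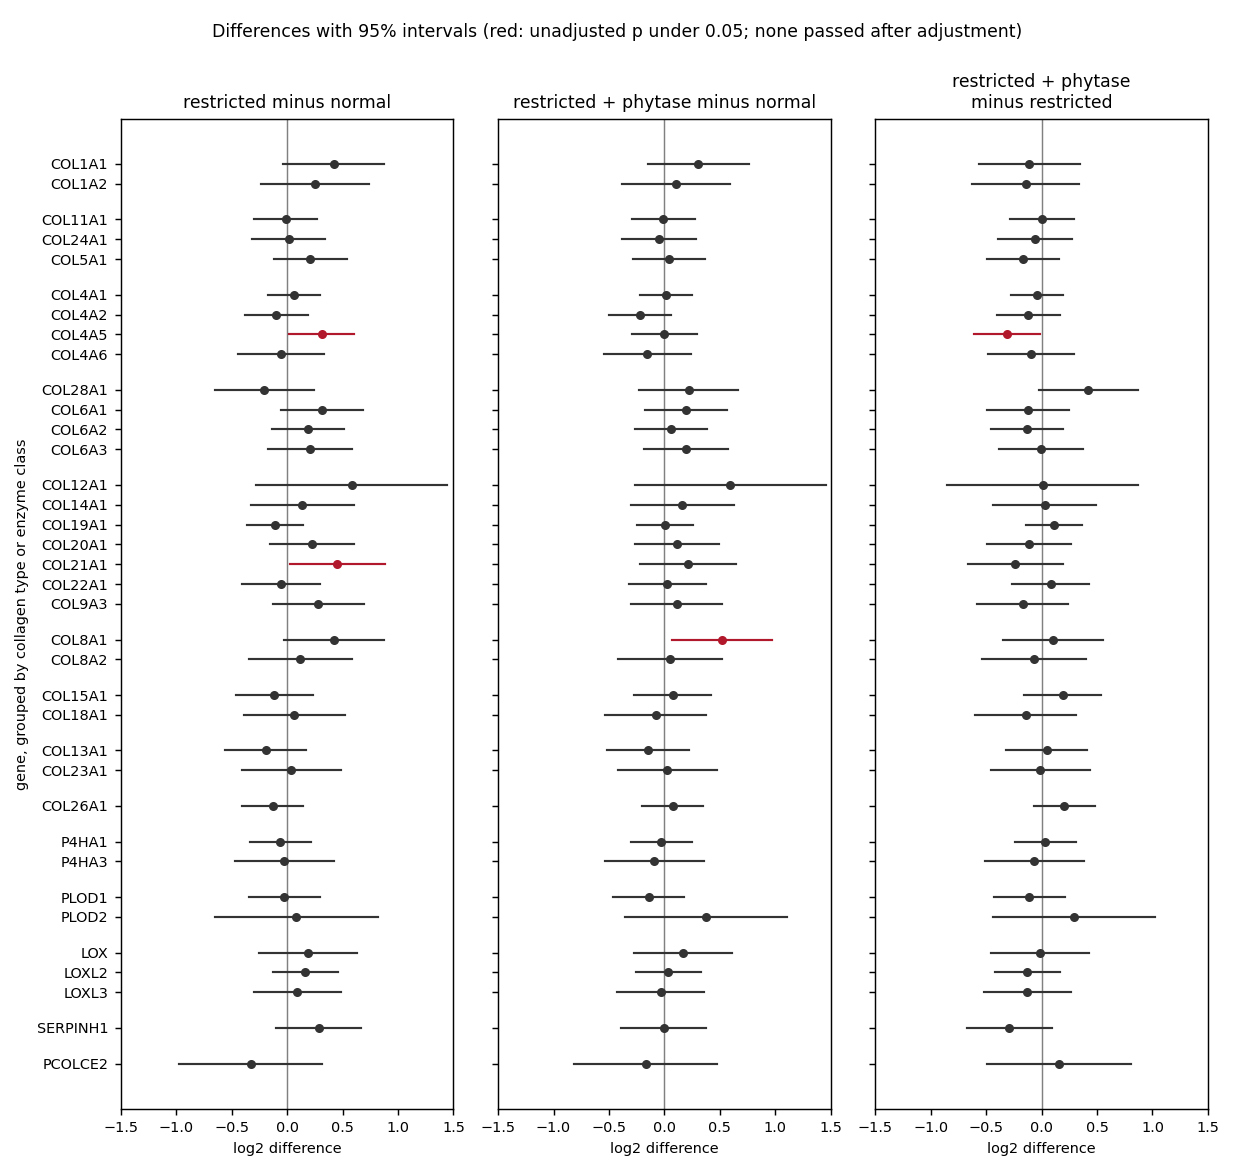
Log2 difference with 95% interval for each of the tested genes, grouped by collagen type or enzyme, in the 3 diet comparisons. Nearly all intervals include 0, and the exceptions are COL21A1 and COL4A5 for restricted over normal, COL4A5 for phytase minus restricted and COL8A1 for phytase over normal.

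Several of the genes, but not the family as a whole, varied together from pool to pool within diets. After subtracting each diet's mean, COL1A1 correlated with COL1A2 at r = 0.94 over the 12 pools (Spearman's rho = 0.94, exact permutation within diets, two-sided p = 7.2e-05, the smallest these permutations can give). It correlated with COL12A1 at r = 0.87 (rho = 0.86, exact permutation p = 0.000651). For the type VI chains r was 0.79 for COL6A1, 0.86 for COL6A2 and 0.85 for COL6A3 (exact permutation p = 0.00101, 0.00333 and 0.00246; rho = 0.81, 0.83 and 0.78). SERPINH1 followed COL1A1 at r = 0.83 (rho = 0.85, exact permutation p = 7.2e-05) and LOX at r = 0.74 (rho = 0.66, exact permutation p = 0.00658). Leaving out normal replicates 2 and 3, the 2 pools farthest from the median in COL1A1, r was 0.92 for COL1A2, 0.94 for COL12A1, 0.80 for COL6A1, 0.79 for COL6A2, 0.80 for COL6A3, 0.83 for SERPINH1 and 0.63 for LOX.

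COL14A1 and COL5A1 also followed COL1A1, at r = 0.76 and 0.73 (rho = 0.81 and 0.76, exact permutation p = 0.0148 and 0.0162), and reached 0.88 and 0.89 without those 2 pools. The type IV chains had r of 0.14 for COL4A1, -0.10 for COL4A2, 0.05 for COL4A5 and 0.25 for COL4A6 with COL1A1, and P4HA1 stood at 0.08. These values moved with the pools used. Without those 2 pools they were -0.41 for COL4A1, -0.37 for COL4A2, 0.11 for COL4A5 and 0.07 for COL4A6, and COL4A1 was at 0.43 without the 4 pools with HINTW signal. COL15A1, a multiplexin of the basement membrane zone, ran against COL1A1 at r = -0.76 (rho = -0.80, exact permutation p = 0.00434; r = -0.75 without the 2 pools).

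In all, 12 of the 35 other genes had an unadjusted p under 0.05 with COL1A1, 11 of them positive, against 9.25% of the 12481 other clusters (5.82% positive and 3.43% negative). The median r was 0.33 over the 35 and 0.02 over all clusters. After Benjamini-Hochberg adjustment over all 12481 clusters no relation passed 0.05 for Pearson's r, and the smallest adjusted p was 0.301. The exact permutation p cannot fall under 7.2e-05, which limits how low an adjusted p over 12481 clusters can be. COL1A2 and SERPINH1, both at that limit, had the adjusted p of 0.301. With Spearman's rho 11 of 35 had an unadjusted p under 0.05, against 9.32% of all clusters.

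Leaving out each pool in turn, the relations of COL1A2, COL12A1, COL6A1, COL6A2, COL6A3, SERPINH1, LOX and COL15A1 kept an unadjusted exact permutation p under 0.05 in all 12 cases, with r from 0.91 to 0.96 for COL1A2 and from -0.85 to -0.68 for COL15A1. COL5A1 lost it without restricted replicate 2 or normal replicate 2. COL14A1 lost it without phytase replicate 2 or restricted replicate 2, and P4HA3 and PLOD1 (r = 0.66 and 0.64 with all pools) lost it without any of several pools. Without the 4 pools with HINTW signal, r was 0.95 for COL1A2, 0.87 for COL6A2, 0.88 for SERPINH1 and -0.88 for COL15A1. Only 2 phytase and 2 restricted pools remain there, so their deviations within a diet are equal and opposite. Some weak relations also grew, from -0.40 to -0.85 for COL13A1 and from -0.29 to -0.74 for COL20A1, while COL4A2 stood at -0.03. These values therefore do not show that the relations are stable.

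Within diets, phytase replicate 2 and restricted replicate 2 were high and phytase replicate 1 and restricted replicate 1 low for both COL1A1 and COL12A1. Replicate 2 was highest in every diet for COL1A1, at 12.21 with phytase, 12.38 restricted and 12.11 normal. This also held for COL1A2, COL5A1, COL6A1, COL6A2, LOX and SERPINH1, but not for COL6A3, COL12A1 or COL4A1, among others. The permutations within diets take same-numbered pools of different diets as unrelated, which the labels do not settle. COL12A1 deviated from its diet mean by 0.97 and -0.79 in phytase replicates 2 and 1, and by 0.75 and -0.86 in restricted replicates 2 and 1. In the normal diet replicates 1 and 2 were high, at 0.67 and 0.31, and replicates 3 and 4 low, at -0.70 and -0.29.

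Levels over all 12 pools, which include the diet differences, had their extremes in a few pools. Restricted replicate 2 was highest of the 12 pools for 10 of the 36 genes, namely COL1A1, COL1A2, COL5A1, COL6A1, COL6A2, COL14A1, COL18A1, COL22A1, LOX and SERPINH1. Normal replicate 3 was lowest for 13, among them COL1A1, COL1A2, COL6A1, COL6A2, COL6A3, COL12A1, COL14A1, LOX and SERPINH1. Averaged over the 36 genes, deviations from the 12-pool means were 0.19 in restricted replicate 2, 0.16 in phytase replicate 2 and -0.20 in normal replicate 3.

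**Figure D2:**
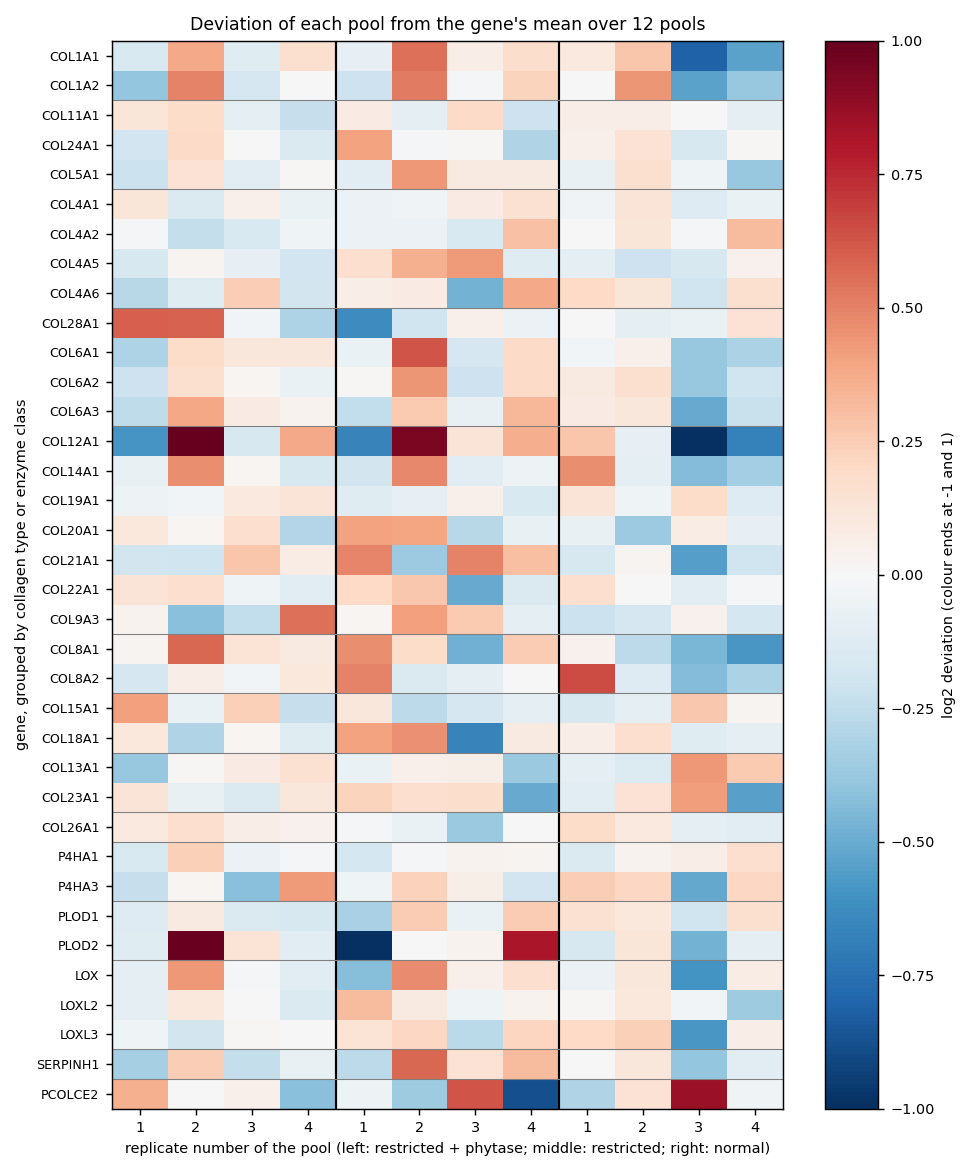
Deviation of each gene from its mean over the 12 pools in each pool (colour, log2 units), with phytase, restricted and normal pools from left to right and genes grouped by type. COL1A1, COL1A2, COL6A1, COL6A2, COL6A3, COL12A1, COL14A1, SERPINH1 and LOX are high together in restricted replicate 2 and phytase replicate 2 and low together in normal replicate 3. Other chains do not share this, such as COL21A1, which is low in restricted replicate 2.

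Some pairs of genes other than COL1A1 correlated as closely, and the highest of those compared are given first, as a description. Deviations of COL6A1 and COL6A2 correlated at 0.93, of LOX and SERPINH1 at 0.93, of PLOD1 and LOX at 0.92 and of COL1A2 and SERPINH1 at 0.90. COL4A1 and COL4A2, which form 1 heterotrimer, correlated at 0.43. Over all 630 pairs of the 36 genes the median was 0.07, and over the 253 pairs among members with means of at least 3.69 it was 0.29. The 78 pairs among dimmer members had a median of 0.01. Pairs within a collagen type or enzyme class were no more alike, with a median of 0.03 over 45 pairs, against 0.07 over the 585 pairs between classes.

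Of the marker lists compared, that of fibroblasts followed COL1A1 most closely. The mean deviation of 6 fibroblast markers (PDGFRA, LUM, THY1, POSTN, FBLN1 and DPT) correlated with that of COL1A1 at r = 0.72 over the 12 pools (exact permutation p = 0.00463, adjusted p = 0.0463 over 10 marker lists; rho = 0.77). Without the 2 farthest pools r was 0.73. The adjusted p lies close to 0.05 and does not count the nerve sheath list, with 1 tested gene, which was not compared. The W-linked list, also with 1 tested gene, was counted. With the nerve sheath list counted too, the adjusted p could lie above 0.05, so this relation is not taken as passing. The other lists had adjusted p of 0.494 or more, with r = 0.63 for mural cells, 0.52 for adipocytes, 0.44 for macrophages and lymphocytes and -0.45 for skeletal muscle, and the mural and adipocyte values were 0.16 and -0.08 without the 2 pools. The fibroblast list averaged 6.32 to 7.20 in phytase pools, 5.97 to 6.93 in restricted pools and 6.17 to 6.63 in normal pools, and no marker was at 0. Between diets 5 of the 6 markers were above 0 for restricted over normal and 6 of 6 for phytase over normal, against 48.6% and 49.6% of all clusters, and none had an adjusted p under 0.05. The part of fibroblast content in the collagen values was not tested.

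Markers of other cell types differed between diets only at unadjusted p. Both tested haemoglobin genes, HBA1 and HBAD, were above 0 for restricted over normal at an unadjusted p under 0.05 in limma, with a median of 1.58. Of all clusters 2.6% were called higher in that comparison. Both genes lay below 0 for phytase minus restricted, as did 51.2% of all clusters, with a median of -1.24. Both had an unadjusted p under 0.05 in limma there too, where 3.8% of all clusters were called lower. The erythroid list had r = -0.06 with COL1A1. All 5 tested endothelial markers were above 0 for phytase over normal, with a median of 0.33 and 2 of 5 at an unadjusted p under 0.05, against 49.6% of all clusters above 0 and 4.32% called. COL8A1 was called in the same comparison. For restricted over normal COL8A1 was at 0.42 and the endothelial median at 0.04, and for phytase minus restricted they were at 0.10 and 0.18. A link between COL8A1 and these markers was not tested. The 3 adipocyte markers were above 0 for restricted over normal, with a median of 0.53, against 48.6% of all clusters above 0. Among them PLIN1, the lipid droplet protein, differed by 0.75 ± 0.19 (SE; limma, unadjusted p = 0.00169, adjusted p = 0.894). Of the 4 tested mural markers, 3 were above 0 for phytase over normal and 1 below, against 49.6% of all clusters above 0. Their median was 0.135. The 1 at an unadjusted p under 0.05, against 4.32% of all clusters, was MYH11, a smooth muscle myosin. MYH11, read from the brighter of its 2 clusters, differed by 0.70 ± 0.29 (SE; limma, unadjusted p = 0.0325, adjusted p = 0.984). None of these markers had an adjusted p under 0.05 in limma, and their part in the collagen values was not tested.

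Across the 7918 genes compared, those whose deviations were most like those of COL1A1, leaving out the collagen family, were MGAT3 and PPIA (r = 0.94 each over 12 pools), NUBP2 (0.92), PDGFRB (0.91), SEC31A (0.90), then KDELR3, VIM, PRELP and GAS2 (0.89 each) and CASKIN2 (0.88). SEC31A is a COPII coat component that carries secretory cargo, KDELR3 returns resident proteins to the endoplasmic reticulum, and PRELP is an extracellular matrix proteoglycan.

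Other genes of collagen handling, from lists of folding, export, propeptide cleavage, fibril regulators, receptors, TGF-beta signalling and breakdown, numbered 39 tested of 79 listed. None had an adjusted p under 0.05 in limma. At an unadjusted p of 0.05, 1 of 39 was called for restricted over normal, 2 for phytase minus restricted and 0 for phytase over normal, against 5.3%, 8.83% and 4.32% of all clusters in these comparisons. Differences lay above 0 for 27 of 39 in restricted over normal and for 30 of 39 in phytase over normal, where 48.6% and 49.6% of all clusters lay above 0.

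The called gene for restricted over normal was FN1, the fibronectin scaffold on which collagen fibrils assemble. FN1 was 9.02, 10.35, 9.51 and 9.99 in phytase pools, 9.44, 11.00, 9.76 and 10.31 in restricted pools, and 9.83, 9.72, 8.86 and 9.18 in normal pools. The diets overlapped, restricted replicate 2 was highest and normal replicate 3 lowest, as for COL1A1, and the difference was 0.73 ± 0.34 (SE; limma, unadjusted p = 0.048, adjusted p = 0.904). FMOD, a proteoglycan on collagen fibrils, differed by 0.54 ± 0.27 (SE; limma, unadjusted p = 0.0686). Of the 7 fibril regulators tested, 6 were above 0 for restricted over normal, with a median of 0.35, against 48.6% of all clusters. For phytase over normal 7 of 7 were above 0, with a median of 0.31, against 49.6% of all clusters.

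For phytase minus restricted the called genes were 2 collagen receptors with opposite signs. ITGB1, the beta subunit of collagen-binding integrins, was 8.13, 8.22, 8.0 and 7.57 in phytase pools, 7.22, 7.43, 7.64 and 7.95 in restricted pools, and 7.64, 7.58, 7.59 and 7.82 in normal pools. Phytase exceeded restricted by 0.42 ± 0.17 (SE; limma, unadjusted p = 0.0259, adjusted p = 0.523). MRC2, an endocytic receptor that takes up collagen for breakdown, was 6.17, 6.25, 6.43 and 6.68 in phytase pools and 6.82, 7.28, 6.34 and 6.67 in restricted pools. Its normal pools were at 6.45, 6.57, 6.26 and 6.33. Phytase lay below restricted, at -0.40 ± 0.18 (SE; limma, unadjusted p = 0.049, adjusted p = 0.566). For restricted over normal MRC2 came next after FN1 in unadjusted p, at 0.375 ± 0.18 (SE; limma, unadjusted p = 0.0599, adjusted p = 0.904). TGFBR1, a TGF-beta receptor gene, came next after MRC2 for phytase minus restricted, at 0.465 ± 0.23 (SE; limma, unadjusted p = 0.0604, adjusted p = 0.571). For phytase over normal the smallest unadjusted p was that of ITGB1, 0.32 ± 0.17 (SE; limma, unadjusted p = 0.0763, adjusted p = 0.984), followed by the COPII gene SEC23A at 0.22 and the gelatinase MMP2 at 0.42.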

How the data were processed

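Total RNA of 12 pools was hybridised to Affymetrix arrays. The deposited files hold log2 levels, 1 per transcript cluster and array, and GCRMA and Affymetrix Expression Console are named without versions, per the submitters' processing notes. The base was taken as 2 from the span of 0.83 to 14.36. GCRMA compresses dim signals, so differences of dim genes are imprecise. The number of arrays limits precision.

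Groups came from the labels. Normal replicate 1 lists no diet characteristic, and its title gave its group. Nothing states that pools hold separate pens, so p-values measure only the spread between pools.

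With limma 3.58.1 under R 4.3.3, and the prior variance trended on level, 3 diet means were estimated from the 12 arrays together, over the 12482 of 20804 clusters at or above the 40th percentile of mean level, with Benjamini-Hochberg adjustment over them. Deviations from diet means were correlated with COL1A1, with exact permutation of pools within diets. The script was tested on simulated data.

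Names came from the platform annotation: 12300 clusters had 1 symbol, 256 several and 8248 none. Of the 42 members, 38 matched RefSeq's GRCg7b gene table by identifier and 4 by symbol. The array's genome build is not given in the sources used here, so no coordinates or sequences are printed.

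Named members were the brightest tested gene of each class, the 4 with the smallest p per comparison, and 10 fixed by name. COL15A1, PLOD2 and other genes given in the correlations were singled out after their values were seen. Pathway genes named were the 3 with the smallest p per comparison. Members and lists were chosen with earlier results of these data known. Alternatives were other filters, scalings, covariates and array sets.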

Additional observations from a re-analysis of the deposited data

Results flagged for a closer look

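Of 66 sets of 4 pools checked, 22 named genes in 3 diets, 5 held a pool far from the other 3, and chance gives about 1 in 20. PLOD1 was 6.82 in phytase replicate 2, next to 6.60 in the nearest phytase pool, and 6.53 in normal replicate 3, next to 6.83 in the nearest normal pool. LOX was 7.47 in phytase replicate 2, with 7.02 in the nearest phytase pool. COL6A1 was 8.46 in phytase replicate 1, with 8.88 in the nearest phytase pool. COL23A1 was 3.02 in restricted replicate 4, with 3.69 in the nearest restricted pool. No explanation of these pools was tested.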

How the results depend on the processing

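No member passed an adjusted p of 0.05 in any comparison under any setting run. The count at an unadjusted p under 0.05 for restricted over normal was 2, and it was 1 with the 60th percentile filter, quantile normalization, median centring, the replicate block, the HINTW level as covariate, or without the arrays with HINTW signal, 0 with only the 2 diets in the fit, and 0 to 3 without single replicates. For phytase minus restricted it was 1, and it was 0 with the 60th percentile filter, quantile normalization, median centring, the replicate block, without the HINTW arrays or with only the 2 diets, and 0 to 2 without single replicates. For phytase over normal it was 1, 2 without the HINTW arrays, and 0 to 2 without single replicates. Without the HINTW arrays the member median for phytase minus restricted was 0.09, against -0.06. Restricted minus normal changed sign for PLOD1 (0.0367 with array weights, 0.0392 with the HINTW covariate and 0.0375 without HINTW arrays), COL18A1 (-0.16 with the HINTW covariate, -0.30 without HINTW arrays, -0.10 as the mean of its clusters), COL23A1 (-0.13 and -0.14 for the HINTW settings) and P4HA1 (0.0194 with the HINTW covariate). Without single replicates it ran from -0.0125 to 0.32 for COL14A1, -0.065 to 0.31 for COL18A1, -0.14 to 0.21 for COL23A1 and -0.11 to 0.0908 for PLOD1. The labels do not say whether replicate numbers pair the pools. Among same-numbered pairs of arrays 3 of 12 correlated above 0.1, and 2 of 12 arrays correlated best with their own number. These correlations cannot exclude a shared pen, day or batch. Replicate 2 was the highest pool of every diet for COL1A1 and several other members. The count of members related to COL1A1, 12 of 35, was 12 after quantile normalization and after median centring and 10 to 13 without single pools, settings chosen after seeing the data. The share of all clusters is given only for the main setting, so the other counts give no result about the members. The causes were not tested.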
